A study of Ganoderma lucidum with 6 samples.

Results

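The pentose phosphate genes described here are the rows for glucose-6-phosphate dehydrogenase (GL31587-G), 6-phosphogluconate dehydrogenase (GL30487-G) and a transketolase (GL26014-G). They were taken by their gene identifiers, as genes of the route that supplies NADPH, and make up 3 of the 16113 genes in the table. The choice was made with earlier results of these data known, so the p-values and shares given for them are no unbiased test of the group. RNA sequencing measured mycelia of wild-type Ganoderma lucidum, a medicinal bracket fungus that rots wood, at day 3. The nitrogen source was sodium nitrate in 3 libraries and ammonium sulfate in the other 3. All are wild type, so no library is labelled as silenced for AreA, the regulator named in the title of the series. The salts also differ in sodium and sulfate, so the nitrogen form and the accompanying ions cannot be told apart. The sources used here state neither the medium and carbon source nor whether replicates were separate cultures. The p-values are thus set against the spread among these libraries, which could be technical alone.

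The pentose phosphate pathway branches from glycolysis at glucose 6-phosphate. In its oxidative arm, glucose-6-phosphate dehydrogenase, a lactonase and 6-phosphogluconate dehydrogenase turn glucose 6-phosphate into ribulose 5-phosphate, and each of the dehydrogenases yields NADPH. The non-oxidative arm, with transketolase and transaldolase, rearranges the sugar phosphates back into glycolytic intermediates and makes no NADPH itself. Fungal nitrate reductases draw electrons from NADPH, and so do nitrite reductase and the synthesis of fatty acids and sterols. In fungi such as Aspergillus nidulans the oxidative arm is known for its part in growth on nitrate.

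Totals ran from 19979528 to 27604895 counts per library. Ammonium replicate 1 and nitrate replicate 1 stood at opposite ends of the main axis of spread within groups, which held 62.4% of that spread. All 6 rows described as chitin synthase and all 3 described as 1,3-beta-glucan synthase, enzymes of the fungal wall, had counts in every library. No KOG description names a hydrophobin, and rows annotated so by other fields were not looked up. All 12 rows whose description mentions meiosis also had counts in every library, the highest at a mean of 36.2 FPKM (fragments per kilobase of gene model, scaled to library size).

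All 3 genes were lower on nitrate than on ammonium, at 40.9% of the ammonium level for glucose-6-phosphate dehydrogenase, 46% for transketolase and 52.4% for 6-phosphogluconate dehydrogenase (edgeR fold changes). For each gene every nitrate library lay below every ammonium library, which held for 17.9% of all 11993 tested genes. At a Benjamini-Hochberg adjusted p under 0.05 (edgeR quasi-likelihood test over all tested genes), 15.6% of tested genes differed. That comprised 8.13% lower and 7.5% higher in nitrate. In bulk mycelium, fewer hyphae of one kind and less RNA per hypha cannot be told apart.

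GL31587-G, glucose-6-phosphate dehydrogenase, catalyses the first and committing step of the oxidative arm. It lies on the plus strand of scaffold 6 at 589803 to 591851, a span of 2049 bases. It had 12.9, 20.9 and 19.1 FPKM in the nitrate libraries, against 41.7, 37.3 and 48.7 FPKM in the ammonium libraries. The groups were far apart, since the highest nitrate library was below the lowest ammonium one by more than the range within nitrate. The mean was 17.6 ± 4.21 FPKM in nitrate and 42.5 ± 5.73 FPKM in ammonium (SD, n = 3 each). The log2 fold change of nitrate over ammonium was -1.29 ± 0.20 (SE, adjusted p = 0.00581, edgeR). Leaving out any single library kept the call, with log2 fold changes from -1.43 to -1.14 (adjusted p = 0.00745 to 0.0311). Only 3.1% of tested genes had a fold change further below 0.

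GL30487-G, 6-phosphogluconate dehydrogenase, makes the second NADPH of the arm and releases carbon dioxide. It lies on the plus strand of scaffold 1 at 1712044 to 1714311. Its level was the highest of the 3 genes in every library, and its mean FPKM was above that of 91.8% of tested genes. It had 93, 120 and 88.3 FPKM in the nitrate libraries, against 191, 157 and 224 FPKM in the ammonium libraries. As a ratio of levels, the gap between the groups was narrower than for GL31587-G, and it lay between nitrate replicate 2 and ammonium replicate 2. Mean levels were 101 ± 17.4 FPKM in nitrate and 191 ± 33.4 FPKM in ammonium (SD, n = 3 each). The log2 fold change was -0.93 ± 0.21 (SE, adjusted p = 0.0228, edgeR). The adjusted p rose to 0.0502 when ammonium replicate 2 was left out, to 0.0868 for ammonium replicate 3 and to 0.0959 for nitrate replicate 3, while the fold change stayed between -1.08 and -0.81. The call held without both libraries at the ends of the within-group axis (adjusted p = 0.0045, log2 fold change -0.95, edgeR). That fit was added after seeing the data and called 4898 of 12068 tested genes.

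GL26014-G is the row described as a transketolase, an enzyme that moves a 2-carbon unit between sugar phosphates in the non-oxidative arm. Whether it is the main transketolase of the mycelium was not tested. It lies on the plus strand of scaffold 8 at 800490 to 803161. It was expressed at a low level, with a mean FPKM above that of 15% of tested genes. Counts were 55, 80 and 55 in the nitrate libraries and 184, 108 and 170 in the ammonium libraries. The exact 95% Poisson interval, which covers counting error only, was 63.4 to 99.6 for the highest nitrate count and 88.6 to 130 for the lowest ammonium count. These intervals overlapped, which is not itself a test of the difference between the libraries. Levels were 1.04, 1.46 and 1.24 FPKM in nitrate and 3.45, 1.85 and 2.84 FPKM in ammonium. The spread was wider in ammonium, where replicate 2 came closest to the nitrate libraries. Mean levels were 1.25 ± 0.213 FPKM in nitrate and 2.71 ± 0.808 FPKM in ammonium (SD, n = 3 each), with a log2 fold change of -1.12 ± 0.26 (SE, adjusted p = 0.028, edgeR).

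The transketolase call was the least firm of the 3. The adjusted p rose to 0.0977 when ammonium replicate 3 was left out and to 0.0572, 0.056 and 0.0996 for nitrate replicates 1, 2 and 3, with log2 fold changes from -1.31 to -0.96 over the 6 fits. The call also did not pass in limma on log2(FPKM + 1), a scale that understates the change of so low a gene (-0.70, adjusted p = 0.0609). On log2(FPKM + 0.1) it was -1.03 (adjusted p = 0.0612). It passed in limma on log2(TPM + 1) (-0.75, adjusted p = 0.0455), by DESeq2 (-1.13, adjusted p = 0.00291) and with both end libraries of the within-group axis left out (-0.87, adjusted p = 0.0221). The fits on TPM and without the end libraries were added after seeing the data.

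**Figure D1:**
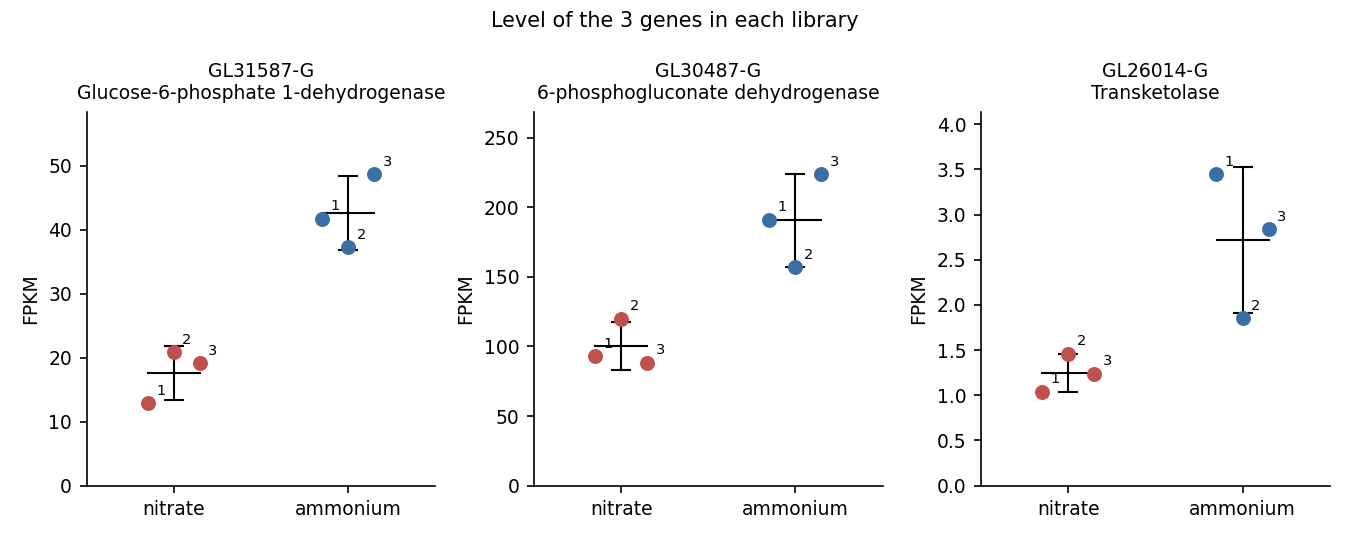
FPKM of each of the 3 genes (vertical axes, each from 0) in the nitrate libraries (left) and the ammonium libraries (right). Points are libraries, numbered by replicate, the wide bar is the group mean and the error bar 1 SD. All nitrate points lie below all ammonium points in each panel, with the narrowest gap for transketolase, at 1.46 against 1.85 FPKM.

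The 3 genes ordered the libraries in part alike. Nitrate replicate 2 was the highest nitrate library and ammonium replicate 2 the lowest ammonium library for all 3. Ammonium replicate 3 was the highest library for both dehydrogenases, and ammonium replicate 1 for the transketolase. Relative to 6-phosphogluconate dehydrogenase in the same library, glucose-6-phosphate dehydrogenase stood at 13.9%, 17.4% and 21.6% of its FPKM in nitrate, against 21.8%, 23.8% and 21.8% in ammonium. The ratio was therefore lower in nitrate, by a margin that nearly closes at nitrate replicate 3. On the log2 scale it differed by -0.37 (exact two-sided permutation test, p = 0.1, the smallest that 3 against 3 allows, and 0.2 adjusted over the 2 ratios computed). Transketolase stood at 1.12%, 1.21% and 1.41% of 6-phosphogluconate dehydrogenase in nitrate and 1.8%, 1.18% and 1.27% in ammonium. Those groups overlapped (log2 difference -0.17, exact permutation p = 0.6, also 0.6 adjusted).

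**Figure D2:**
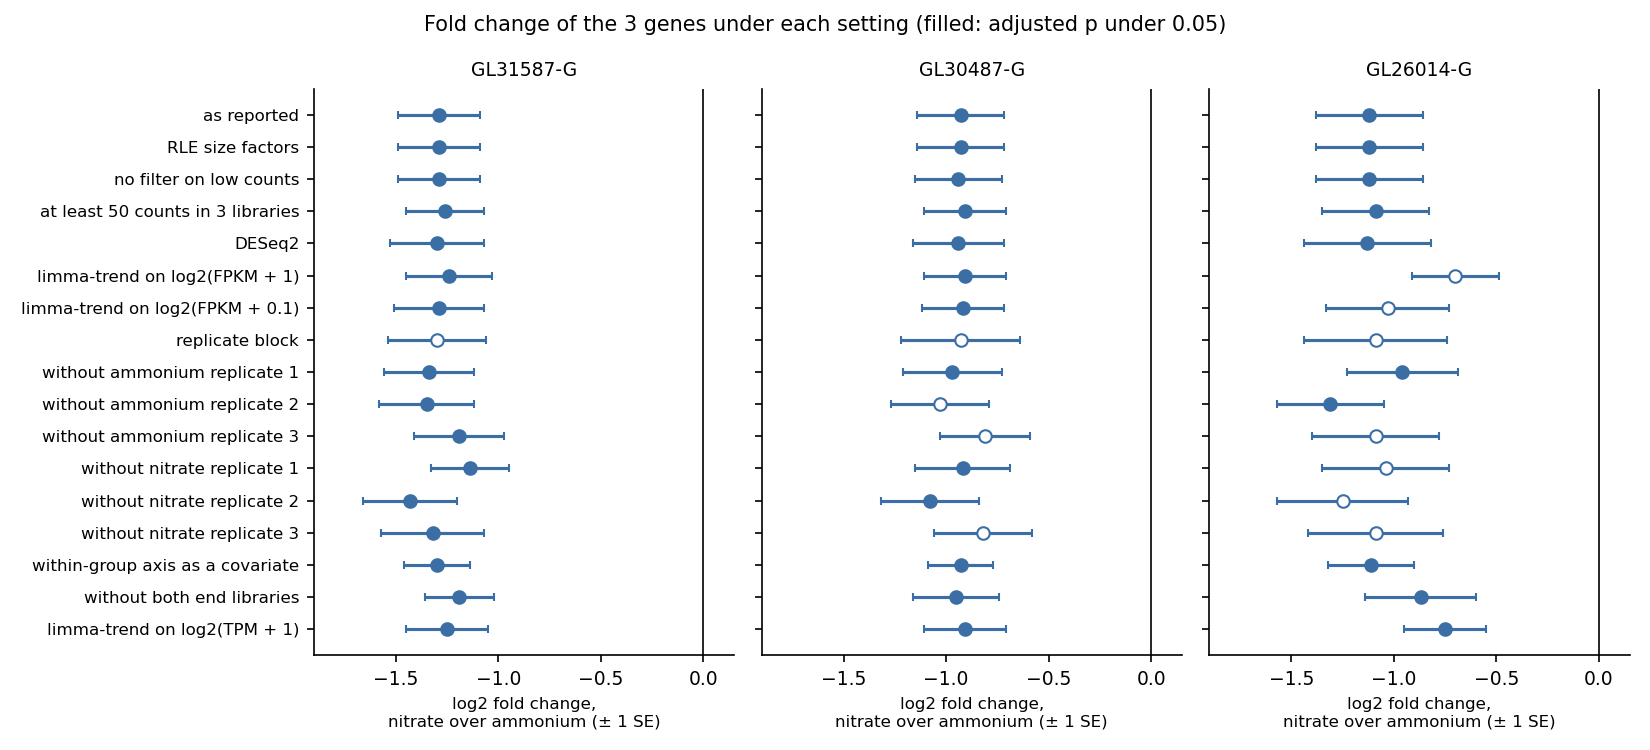
Log2 fold change of nitrate over ammonium (horizontal axes, with 1 SE) for each of the 3 genes, one row per setting of the fit. Filled points passed an adjusted p of 0.05 and open points did not. Every point is below 0, from -1.43 to -1.14 for GL31587-G, -1.08 to -0.81 for GL30487-G and -1.31 to -0.70 for GL26014-G.

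Each of the 3 genes is the one row with its KOG description, so no second copy of that description shares its reads. No gene model of the table overlaps any of them. By GO identifier, 6-phosphogluconate dehydrogenase activity is also given to GL30364-G, described as a predicted dehydrogenase, on scaffold 1 at 3980328 to 3982013. That gene, chosen after its values were seen, had 14.2, 29 and 23.4 FPKM in nitrate and 53.1, 44.6 and 52.9 FPKM in ammonium. Its groups did not overlap, and it was lower in nitrate by the test (log2 fold change -1.20 ± 0.23, SE, adjusted p = 0.0142, edgeR). Leaving out ammonium replicate 3 or nitrate replicate 3 ended the call, at an adjusted p of up to 0.0619. The GO and KEGG identifiers of the other enzymes pointed to GL31587-G and GL26014-G alone.

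Of the 9 tested genes with pentose phosphate descriptions, 4 fell, none rose and 5 did not pass the edgeR test, where 8.13% of all tested genes were lower and 7.5% higher. At an unadjusted p under 0.05 none of the 9 was higher, and DESeq2 called 4 lower and 0 higher. The wording of the list also named phosphoribosyl pyrophosphate synthetase, but its rows are described as ribose-phosphate pyrophosphokinase and were not matched. Those rows, GL27743-G and GL29962-G, had log2 fold changes of 0.62 and 0.47 (unadjusted p = 0.00812 and 0.0126, edgeR) and are given with the KEGG entry below. The median log2 fold change of the 9 was -0.52, beside 0.01 over all tested genes. The 3 genes were chosen with earlier results known, so the others are given apart: of those 6, 1 fell, which is within 1 gene of that share of all tested genes, and their median was -0.24. That gene was ribose 5-phosphate isomerase, GL21223-G, which links ribulose 5-phosphate to the ribose of nucleotides. It averaged 48.3 ± 7.15 FPKM in nitrate and 80 ± 9.17 FPKM in ammonium (log2 fold change -0.75 ± 0.16, adjusted p = 0.022, edgeR). Leaving out ammonium replicate 2 or 3 or nitrate replicate 3 ended the call, at an adjusted p of up to 0.0846. The count of 4 became 2 with ammonium replicate 2 left out, and 1 with either of the libraries numbered 3 left out.

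Between the dehydrogenases of the oxidative arm stands the lactonase. The row described as 6-phosphogluconolactonase-like, GL30214-G, averaged 49.6 ± 2.35 FPKM in nitrate and 51.7 ± 3.51 FPKM in ammonium, a log2 fold change of -0.07 ± 0.15 that did not pass (adjusted p = 0.805, edgeR). It lies on the same scaffold as GL30487-G, on the other strand, with 16077 bases and 10 gene models between them. In the non-oxidative arm, the abundant transaldolase GL22212-G averaged 126 ± 34.7 FPKM in nitrate and 157 ± 31.4 FPKM in ammonium (adjusted p = 0.358). The second transaldolase row, GL30545-G, averaged 7.97 ± 0.516 and 8.04 ± 1.63 FPKM in nitrate and ammonium (adjusted p = 0.958). Its model overlaps another on the opposite strand, and with the strand setting unknown the reads of the pair may be mixed. Ribulose 5-phosphate 3-epimerase, GL30294-G, stood at 21.6 ± 4.65 FPKM in nitrate and 24 ± 12.4 FPKM in ammonium (adjusted p = 0.798). Gluconate kinase, GL17591-G, which feeds gluconate into the pathway, stood at 7.94 ± 2.26 FPKM in nitrate and 11.3 ± 3.01 FPKM in ammonium (adjusted p = 0.208). The test did not separate these 5 genes from 0.

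The KEGG entry for the pathway, which also takes in glycolytic neighbours, held 17 tested genes. Of these, 5 fell and 0 rose (edgeR), beside 8.13% lower and 7.5% higher over all tested genes. Among the 5 are the 3 genes described here, which were chosen with earlier results known. Of the other 14, 2 fell, which is within 1 gene of the 8.13% share, and 0 rose. Their median log2 fold change was -0.17. Without both libraries at the ends of the within-group axis, 5 of the 17 were lower and 4 higher. With that axis as a covariate 6 were lower and 3 higher. Both fits were added after seeing the data and called many more genes. Over all genes the first called 2534 lower and 2364 higher of 12068, and the second 2506 lower and 2403 higher of 11993. The counts of 4 and 3 higher are within 1 gene of those shares. At an unadjusted p under 0.05 in the edgeR fit on all 6 libraries, 2 of the 17 were higher, and DESeq2 called 6 lower and 2 higher. Those 2 were ribose-phosphate pyrophosphokinases, which make the ribose donor for nucleotides and were named after their values were seen. GL27743-G averaged 94.2 ± 10.6 FPKM in nitrate and 61 ± 9.96 FPKM in ammonium (adjusted p = 0.0513, 0.0113 by DESeq2 and 0.00632 without both end libraries). GL29962-G averaged 52.7 ± 1.22 FPKM in nitrate and 37.9 ± 4.22 FPKM in ammonium (adjusted p = 0.0672, 0.0342 by DESeq2 and 0.0243 without both end libraries). The GO identifier of the pentose-phosphate shunt, looked up after the annotation was seen, held 12 tested genes. The 3 of them that passed were the genes described here, beside 8.13% lower and 7.5% higher over all tested genes. No other gene with that identifier passed, so the count is no result beyond those 3 genes. The count of 5 in the KEGG entry was 3 with ammonium replicate 2 left out, 2 for ammonium replicate 3 and 1 for nitrate replicate 3.

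**Figure D3:**
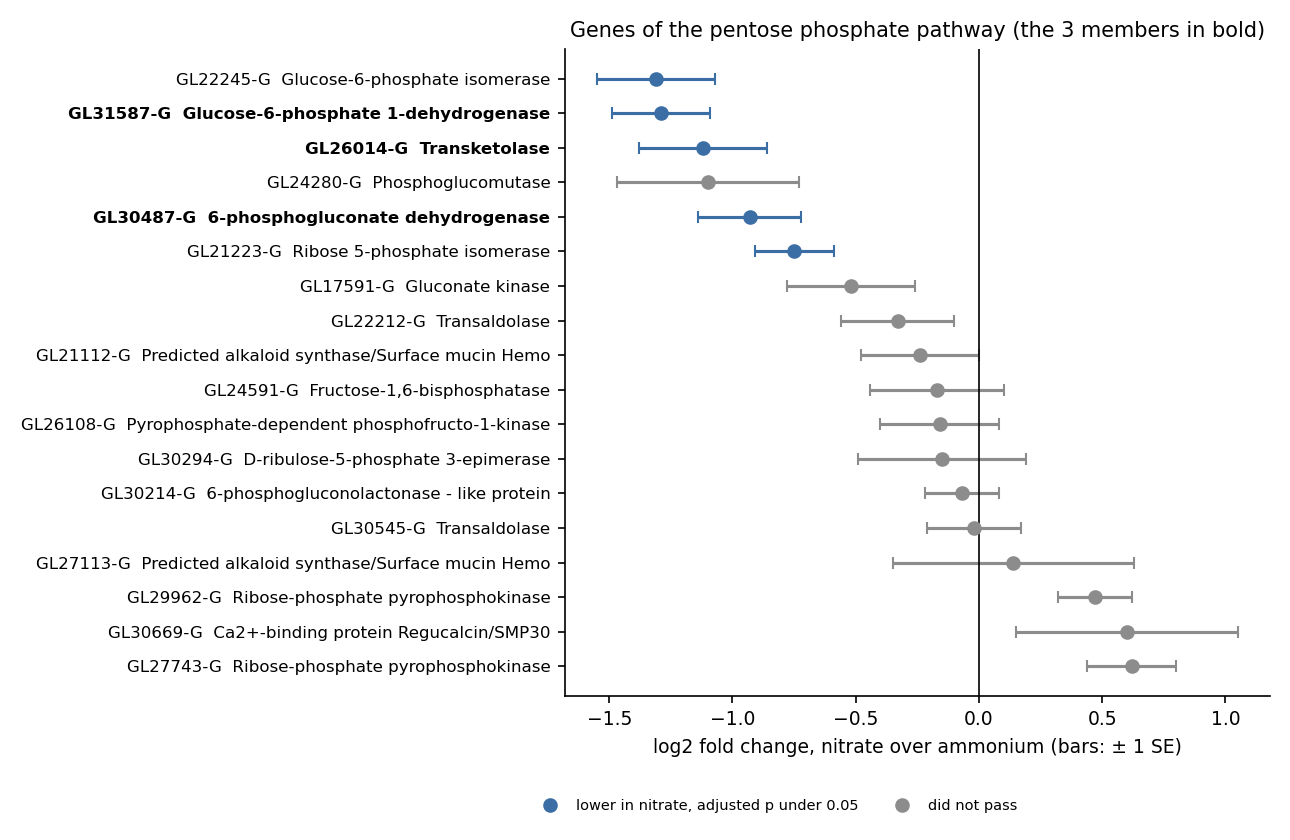
Log2 fold change of nitrate over ammonium (horizontal axis, bars 1 SE) for the genes with a pentose phosphate description or KEGG entry, one per line and ordered by fold change. Blue marks an adjusted p under 0.05, grey the genes that did not pass, and bold type the 3 genes described here. The 5 blue genes lie between -1.31 and -0.75, and no gene above 0 passed.

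At the branch point, glucose 6-phosphate can also enter glycolysis, glycogen and wall precursors or trehalose. Of 8 tested genes there, 1 rose, 1 fell and 6 did not pass, with a median log2 fold change of -0.26. In each direction that count is within 1 gene of the share over all tested genes (7.5% higher, 8.13% lower). Glucose-6-phosphate isomerase, GL22245-G, which competes with GL31587-G for the same substrate, had 31.3, 48.2 and 33.4 FPKM in nitrate and 80, 77.7 and 118 FPKM in ammonium. Its groups did not overlap, and its log2 fold change of -1.31 ± 0.24 was close to that of GL31587-G (adjusted p = 0.0121, and 0.0567 without nitrate replicate 3, edgeR). A trehalose-6-phosphate synthase component, GL22527-G, which draws on glucose 6-phosphate to make the sugar trehalose, averaged 27 ± 5.76 FPKM in nitrate and 14.6 ± 2.58 FPKM in ammonium. Its log2 fold change was 0.86 ± 0.20 (adjusted p = 0.028, edgeR), and of the 6 libraries only nitrate replicate 1 could be left out with the call kept (adjusted p up to 0.101). The counts of 1 and 1 became 0 and 0 with nitrate replicate 3 left out, and 0 and 1 with any single ammonium library left out.

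A list of other candidate NADPH suppliers held malic enzymes, isocitrate and methylenetetrahydrofolate dehydrogenases, aldehyde dehydrogenases and, for NAD kinase, rows described as sugar kinases. Among the 26 tested, 2 rose, 4 fell and 20 did not pass, with a median log2 fold change of -0.20. Over all tested genes 7.5% were higher, a share close to that of the list, and 8.13% lower. The called ones were all aldehyde dehydrogenases, a family in which the description does not say whether NAD or NADP is used. GL26076-G averaged 4.49 ± 0.694 FPKM in nitrate and 11.5 ± 3 FPKM in ammonium (log2 fold change -1.36 ± 0.21, adjusted p = 0.00633, edgeR), and no single library ended its call. GL30044-G (-0.92 ± 0.17) did not pass with either library numbered 3 left out (adjusted p up to 0.0575), and its model overlaps another on the opposite strand. GL30174-G (-1.15 ± 0.31) passed in 2 of the 6 fits, those without ammonium replicate 1 or nitrate replicate 2, and not without both end libraries (adjusted p = 0.0949). GL24130-G, which was higher (1.27 ± 0.28), passed in 3, those without ammonium replicate 1 or nitrate replicate 1 or 3. The higher GL16605-G and the lower betaine aldehyde dehydrogenase GL30708-G passed in none of the 6 (adjusted p = 0.0521 to 0.182). The 6 calls became 2 with ammonium replicate 2 left out, 1 for ammonium replicate 3, 3 for nitrate replicate 1 and 2 for nitrate replicate 3.

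Among the enzymes best known as alternatives to the pentose phosphate route, the 3 named here did not pass the edgeR test on all 6 libraries, and 2 of them passed under other settings. The abundant NADP malic enzyme GL22666-G averaged 336 ± 104 FPKM in nitrate and 279 ± 32 FPKM in ammonium (adjusted p = 0.508). Its log2 fold change without both end libraries was 0.49 (adjusted p = 0.0353, edgeR). That fit was added after seeing the data and called 4898 of 12068 tested genes, so a pass in it is weak. The second, GL30130-G, averaged 74.5 ± 27.8 FPKM in nitrate and 138 ± 26.7 FPKM in ammonium (adjusted p = 0.057). Its groups did not overlap, and its adjusted p was 0.011 by DESeq2, 0.0259 with nitrate replicate 2 left out and 0.0396 without both end libraries. NADP isocitrate dehydrogenase, GL20627-G, stood at 68.3 ± 9.03 FPKM in nitrate and 78.6 ± 33.2 FPKM in ammonium (adjusted p = 0.638). These genes were named after their values were seen. A transhydrogenase, which passes hydride between NADH and NADPH, is given by KEGG entry to GL28475-G, also named after its values were seen. It averaged 18.4 ± 0.337 FPKM in nitrate and 33 ± 7.76 FPKM in ammonium, and it was lower by the test (adjusted p = 0.0283, edgeR), though not once replicate 2 or 3 of either group was left out (adjusted p up to 0.102).

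On the side of NADPH use, 2 of 12 tested genes rose, 1 fell and 9 did not pass, with a median log2 fold change of 0.18. Most rows of this list are described as animal-type fatty acid synthase and related proteins, several of them expressed at a low level. The list is therefore no broad survey of NADPH use. Over all tested genes 7.5% were higher and 8.13% lower, so the count of 1 lower is close to the share over all genes. Those that rose carry the GO identifiers of the enzymes that take electrons from NADPH to nitrate and nitrite. They were put on the list by identifier, with earlier results known, and not by description as the rest were. The count of 2 higher is thus no result about the list, whose median also includes them, and no other gene of it rose. The nitrate reductase row GL22281-G averaged 51.3 ± 3.36 FPKM in nitrate and 4.93 ± 0.369 FPKM in ammonium, and the nitrite reductase row GL29837-G 41.3 ± 5.53 FPKM in nitrate and 18.7 ± 2.75 FPKM in ammonium. Both therefore moved in the direction opposite to the 3 pentose phosphate genes. The one that fell, GL21264-G, of the animal-type fatty acid synthase family, averaged 21 ± 3.33 FPKM in nitrate and 79.7 ± 23.7 FPKM in ammonium (log2 fold change -1.93 ± 0.30, adjusted p = 0.0062, edgeR). No single library ended any of these 3 calls.

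Glutathione reductase, which uses NADPH to keep glutathione reduced, is given by KEGG entry to GL22863-G, named after its values were seen. It averaged 26.5 ± 3.15 FPKM in nitrate and 50.5 ± 8.33 FPKM in ammonium (log2 fold change -0.94 ± 0.17, adjusted p = 0.0101, and 0.0519 with nitrate replicate 3 left out, edgeR). Among 7 tested genes described as NADP/FAD dependent oxidoreductases or NADP-dependent flavoprotein reductases, a list added after the annotation was seen, 0 rose, 2 fell and 5 did not pass, beside 7.5% higher and 8.13% lower over all tested genes. At an unadjusted p under 0.05 none of the 7 was higher, and DESeq2 called 0 higher. GL18952-G averaged 4.35 ± 1.48 FPKM in nitrate and 25.3 ± 1.77 FPKM in ammonium (log2 fold change -2.56 ± 0.24), and GL20411-G 4.39 ± 0.232 FPKM in nitrate and 17.1 ± 2.25 FPKM in ammonium (-1.97 ± 0.16).

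**Figure D4:**
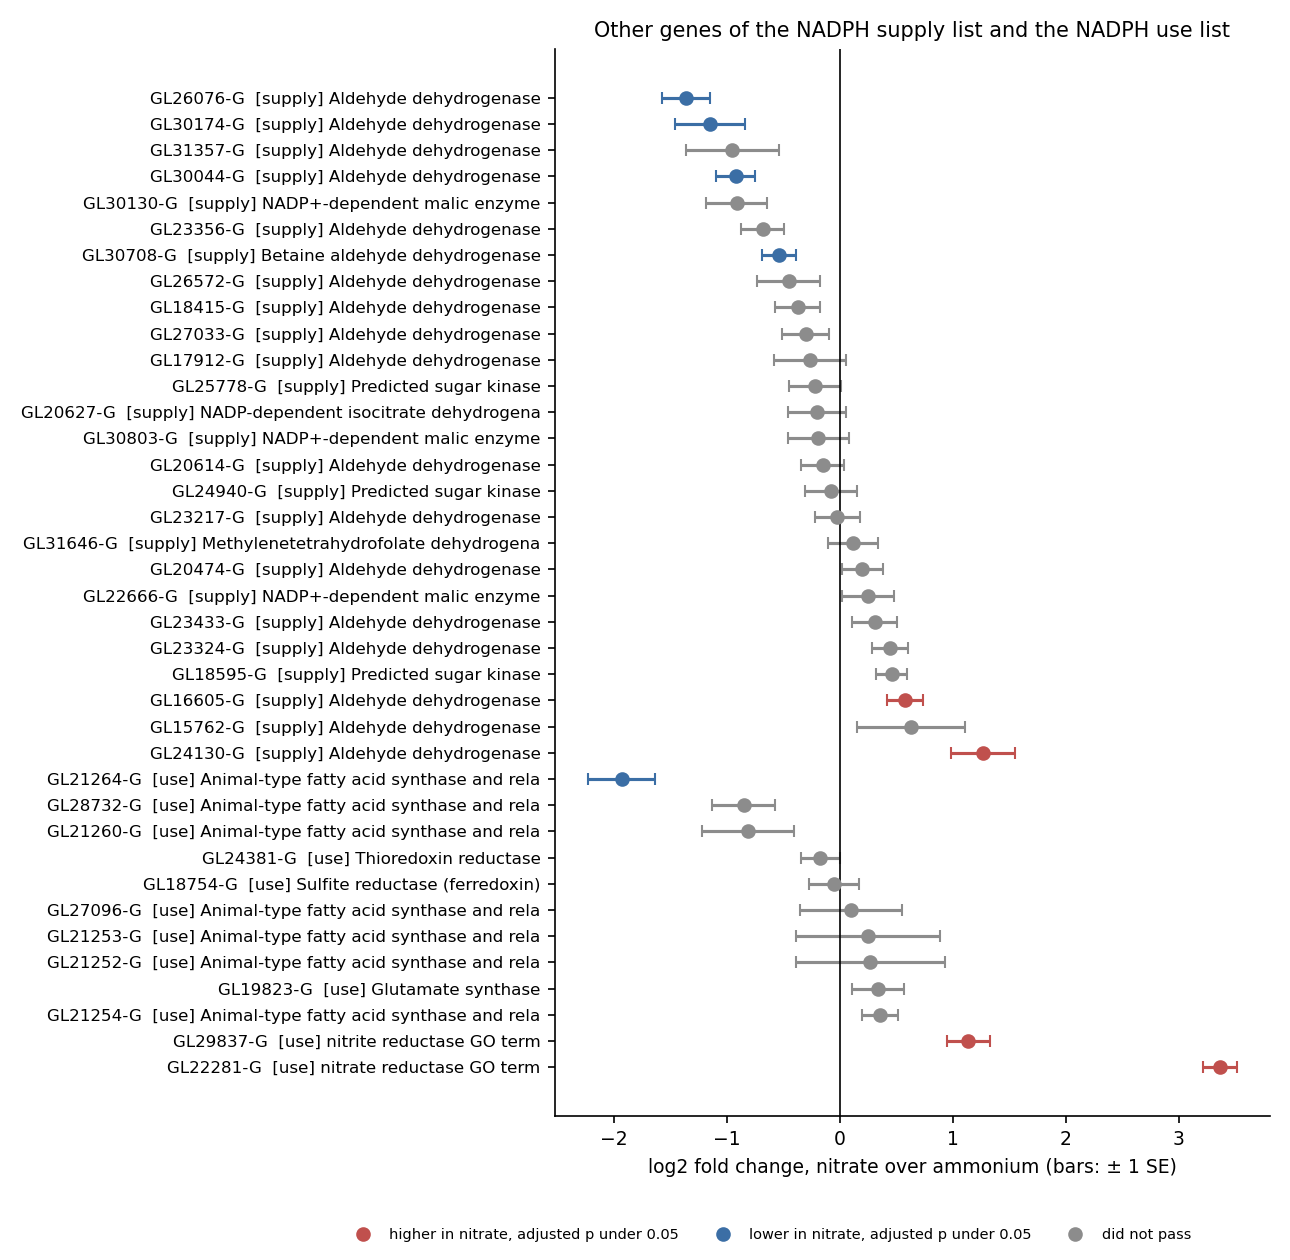
Log2 fold change of nitrate over ammonium (horizontal axis, bars 1 SE) for tested genes of the supply list (upper block) and the use list (lower block), ordered by fold change within each. Red marks genes higher and blue genes lower in nitrate at an adjusted p under 0.05, and grey the others. The nitrate reductase row stands farthest to the right, and called genes appear on both sides of 0 in each block. In the use block the red genes are the nitrate and nitrite reductase rows, which were listed by identifier.

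The neighbours of the 3 genes on their scaffolds did not pass the test. GL31435-G begins 170 bases from GL31587-G on the opposite strand and averaged 33.9 ± 4.05 FPKM in nitrate and 32 ± 4.49 FPKM in ammonium (adjusted p = 0.791, edgeR), while GL31588-G on the other side was below 4 FPKM in every library. GL30487-G lies between a branched chain aminotransferase, GL29910-G, with a log2 fold change of -0.53 ± 0.23 (adjusted p = 0.157), and an RNA helicase, GL29911-G, with 0.12 ± 0.27. Beside GL26014-G lie the undescribed GL29056-G, with a log2 fold change of -0.61 ± 0.45 (adjusted p = 0.388), and an alcohol dehydrogenase, GL20282-G, with -0.14 ± 0.27.

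The described genes whose levels tracked each of the 3 most closely over the 6 libraries were found by Pearson correlation of log2(FPKM + 1), as a description that the difference between the groups largely sets. For GL31587-G they were an inositol phosphatase of the INP51/INP52/INP53 family, GL24697-G (r = 0.998), an oxoprolinase, GL18875-G (0.997), and a serine/threonine protein kinase, GL23546-G (0.997). For GL30487-G they were a spindle pole body protein, GL29060-G (0.996), a calmodulin-dependent protein kinase, GL26655-G (0.995), and a galactokinase, GL17052-G (0.992). For GL26014-G they were a mitochondrial carrier protein, GL26640-G (0.992), a protein with a thioredoxin domain, GL24070-G (0.989), and a serine carboxypeptidase, GL17913-G (0.989). None of these 9 genes has a pentose phosphate description, and the models of GL26640-G and GL24070-G overlap others on the opposite strand. Values above 0.9 were common, at 11.9%, 9.81% and 6.82% of about 4015 candidate genes for GL31587-G, GL30487-G and GL26014-G in that order.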

How the data were processed

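Total RNA from mycelia was turned into mRNA libraries for the Illumina platform, per the labels' protocols. The authors deposited 1 table holding raw counts, TPM and FPKM per gene and library, per the file headers. For the aligner, counter, strand setting and genome build: not given in the sources used here. Positions are those of the table. Enzyme descriptions are KOG names. Levels are FPKM as the authors deposited them, and the deposited TPM served 1 alternative fit.

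Counts were tested with edgeR 4.0.16 (R 4.3.3): TMM factors, filterByExpr, robust quasi-likelihood fit on all 6 libraries, Benjamini-Hochberg adjustment over 11993 tested genes, threshold 0.05. Positive log2 fold changes mean higher in nitrate. Standard errors came from the F statistic. Alternatives used DESeq2 1.42.0, limma 3.58.1 (genes of at least 1 FPKM in 3 libraries), other filters and size factors, a replicate block and each library left out. Ratios were tested with scipy 1.17.1.

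The members and lists were chosen with earlier results of these data known. Genes named are the 3 members, all tested genes with pentose phosphate descriptions, called genes of the other lists, scaffold neighbours and the 3 genes of at least 5 FPKM most like each member. Others are said to have been named after their values were seen.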

Additional observations from a re-analysis of the deposited data

How the results depend on the processing

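All 3 genes stayed lower in nitrate under all 16 alternatives. Without 1 library the log2 fold changes ran from -1.43 to -1.14 for GL31587-G, -1.08 to -0.81 for GL30487-G and -1.31 to -0.96 for GL26014-G. Limma on log2(FPKM + 1) and log2(FPKM + 0.1) gave GL26014-G -0.70 and -1.03, short of the threshold. Calls over all genes (1874) ran from 655 to 1946 without 1 library. Those of the pentose phosphate list (4) ran from 1 to 4, of the other suppliers (6) from 1 to 4, of the NADPH consumers (3) from 3 to 4 and of the glucose 6-phosphate branch (2) from 0 to 3. No shared shift by replicate number was seen: deviations of same-numbered libraries correlated at -0.66, -0.349 and -0.458, and 0 of 6 libraries correlated best with its own number. With 3 libraries per group, each centred on its group mean, this cannot show that the cultures were unpaired, and the labels do not say. With the number as a block, calls over all genes were 225, those of the lists 0, 0, 1 and 0 in the order above, those of the KEGG entry 0, and the members stood at -1.30, -0.93 and -1.09 (adjusted p = 0.0588, 0.164 and 0.165). In fits added after seeing the data, the within-group axis as a covariate gave 4909 calls over all genes, 12 for the other suppliers and 7 for the consumers. Leaving out both end libraries gave 4898, 12 and 5, and 4 for the branch. The axis came from the same data, so these p-values can be too small. The cause of the moves was not tested. The difference in the ratio of GL31587-G to GL30487-G ran from -0.53 to -0.21 without 1 library, and that of GL26014-G to GL30487-G from -0.29 to 0.02. Depth limits GL26014-G most, at 55 to 184 counts per library.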
